A study of Sus scrofa with 4 samples.

Results

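Complement components and regulators were examined as a group of 9 genes chosen by symbol: the proteases C1R and C1S, the central component C3, the alternative pathway proteases CFB and CFD, the inhibitor SERPING1, and the membrane regulators CD46, CD55 and CD59. Of the 9, 6 had a row under their symbol among the 35670 genes listed (C1R, C1S, C3, CFB, CFD and SERPING1). No row under the symbols CD46, CD55 or CD59 was found, and these 3 are not analysed here.

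Complement is a cascade of plasma proteases that marks targets with fragments of C3 and can end in a membrane pore. In the classical pathway the recognition protein C1q carries the proteases C1r and C1s, which cleave C4 and C2, and SERPING1, the C1 inhibitor, inactivates both proteases. In the alternative pathway factor D (CFD) cleaves factor B (CFB) bound to C3b, which forms the convertase that cleaves more C3. The liver makes most circulating complement. Fibroblasts also secrete C1r, C1s, C3, factor B and C1 inhibitor, and inflammatory cytokines are known to raise C3 and factor B transcripts in them.

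RNA was sequenced from porcine fetal fibroblasts (PFFs, from skin), the donor cells of nuclear transfer cloning, all of them serum-starved. There were 2 control libraries of wild-type genotype (WT) and 2 labelled BRG1-overexpressed; BRG1 is the ATPase of the BAF chromatin remodelling complex, encoded by SMARCA4. The name pTK-642 stands in the titles of all 4 libraries, and the vector, its promoter, the species of the introduced sequence and whether the cells are 1 clone are not given in the sources used here, nor is it stated that the libraries of a group came from separate cultures, so p-values measure the spread between these libraries only. The question behind the comparison is what added BRG1 does to donor cells before cloning.

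Each library held between 34486400 and 38126860 gene reads. SMARCA4 itself was at 154 and 179 CPM in the controls and 159 and 163 CPM in the libraries labelled BRG1 (CPM, reads per 1000000 gene reads, scaled by TMM factors for library composition), so the groups overlapped and the reads counted under this gene did not rise with the label (log2 fold change -0.04 ± 0.11, SE; edgeR's quasi-likelihood test, Benjamini-Hochberg adjusted p = 0.765 over all genes). Without control 1 the value was -0.15 ± 0.060 and passed (adjusted p = 0.0251). In a fit that leaves out a control, the lone control is assumed to vary like the closely matched pair labelled BRG1, which alone gives the spread, so its SE and p are smaller than those of the full fit; a fit that leaves out a library labelled BRG1 takes its spread from the controls alone. Higher and lower below always mean the libraries labelled BRG1 relative to the controls. Of all reads, 6.11% and 7.34% fell outside annotated genes in the controls, against 10.3% and 10.5% in the other group, and their part in the results was not tested.

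Of 9 fibroblast markers listed, THY1 had no row under its symbol, and the other 8 had reads in all libraries. Of these 8, 6 rose and none fell, where 21% of all genes tested rose and 23.6% fell. The summed level of the 8 was 17802 to 21334 CPM in controls and 29653 to 29756 CPM in the other group. The same shares over all genes stand beside the counts of the other markers below. Hepatocyte markers, of the main complement-producing cell, summed to at most 2.98 CPM in any library, with APOB and TTR at 0 (0 of 2 tested passed). Of 7 myeloid markers, PTPRC was at 0 in all libraries and 2 of 3 tested fell; the sum, 83.2 to 84.7 CPM in controls and 43.5 CPM in both libraries labelled BRG1, came mostly from CD14, which fibroblasts can also express. Adipocyte markers, of the tissue known for factor D, summed to 1.37 to 1.81 and 5.76 to 8.89 CPM, with ADIPOQ and FABP4 at 0 and LPL the 1 gene tested, which rose. Endothelial markers summed to at most 7.77 CPM (1 of 2 tested rose; TEK at 0), epithelial to at most 1.07 CPM (the 1 tested, EPCAM, fell; KRT5 at 0), melanocyte to at most 0.498 CPM (0 tested) and lymphocyte to at most 0.600 CPM (0 of 1 tested passed; MS4A1 and NKG7 at 0). The part of these cells in the results was not tested. In bulk RNA, fewer cells of a type and less RNA per cell cannot be told apart.

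Of the 6 genes, C3, CFB and CFD fell, C1S and the C1 inhibitor gene SERPING1 rose, and C1R did not pass the test. All 6 passed the filter on low counts, and 5 of 6 passed an adjusted p of 0.05, 2 higher and 3 lower. Across all 14617 genes tested 44.6% passed, 21% higher and 23.6% lower, so that a call by itself was common in this comparison. The median log2 fold change of the 6 was -0.33, against 0.02 over all genes tested. With each library's trend of level with gene span removed it was -0.08, against 0.002 over the genes then tested. With scaling by library size alone it was -0.10, against 0.24. The 2 groups did not overlap in 6 of 6, against 73.2% of all genes tested.

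**Figure D1:**
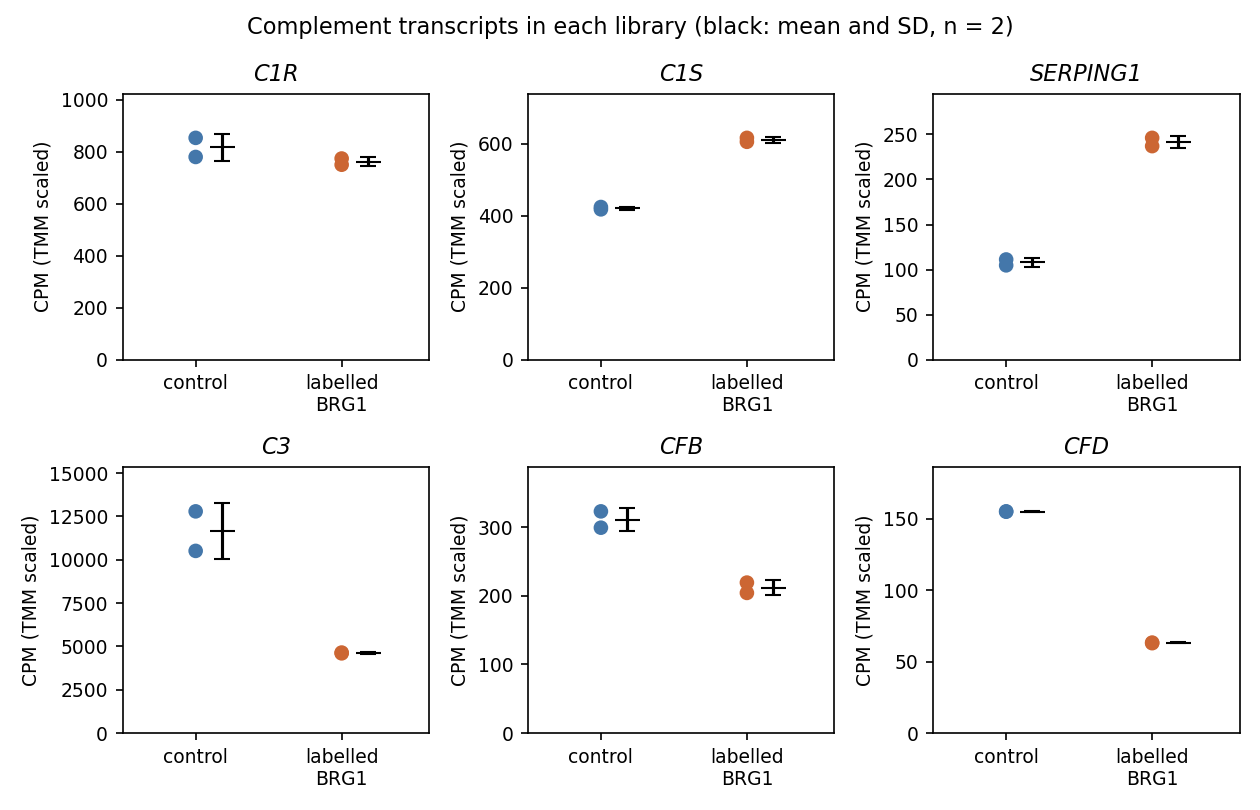
Level of each of the 6 complement genes in each library (points; y axis, TMM-scaled CPM from 0; n = 2 libraries per group), with the group mean and SD in black. C3, CFB and CFD lie lower in both libraries labelled BRG1, C1S and SERPING1 lie higher, and the C1R groups sit close together, between 751 and 854 CPM.

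C3, whose cleavage is the step on which all complement pathways converge, carried most of the reads of the group. Its level was 10509 and 12788 CPM in controls 1 and 2 and 4602 and 4647 CPM in the libraries labelled BRG1. On this scale both controls lay more than 2-fold above both other libraries. The controls differed from each other by 19.6% of their mean, the libraries labelled BRG1 by 0.980%. With scaling by library size alone C3 was at 9652 and 11911 CPM in the controls against 4983 and 5018 CPM. There control 1 lay less than 2-fold above both libraries labelled BRG1. With TMM scaling its log2 fold change of -1.33 ± 0.13 (SE, 95% interval -1.61 to -1.05, adjusted p = 1.32e-06, edgeR quasi-likelihood test) left 39.7% of the control level. C3 (ENSSSCG00000013551; Sscrofa11.1 chromosome 2, 72431470 to 72471622) drew 1.08% ± 0.16 of all gene reads in controls and 0.50% ± 0.002 in the other group (SD, n = 2). By number of reads, which also grows with transcript length, it stood at rank 5 and 3 of all genes in controls 1 and 2 and at rank 12 in both libraries labelled BRG1. Only 4.26% of tested genes had a lower log2 fold change.

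CFD, factor D, the protease that starts the alternative convertase by cutting factor B, fell by a similar factor. It was at 155 and 155 CPM in the controls and 63.0 and 63.4 CPM in the libraries labelled BRG1. Replicates differed by 0.159% and 0.622% of their group means, and the groups stood far apart. The log2 fold change was -1.30 ± 0.10 (adjusted p = 9.32e-08, edgeR quasi-likelihood test), from 5426 and 4985 reads in controls and 2471 and 2373 in the others. CFD (ENSSSCG00000013418; Sscrofa11.1 chromosome 2, 77509792 to 77511988) spans 2197 bases, the shortest of the 6 genes. With each library's trend of level with gene span removed, its log2 fold change was -0.89 (adjusted p = 2.14e-06) and that of C3 was -1.36. The likeness of its fall to that of C3 thus depended on this setting.

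CFB, factor B, which supplies the protease of the alternative C3 convertase, fell less. It was at 299 and 323 CPM in the controls and 204 and 219 CPM in the libraries labelled BRG1. The groups did not overlap, and the replicates of each group differed by between 7.10% and 7.64% of their mean. The log2 fold change was -0.55 ± 0.10 (adjusted p = 0.000498, edgeR quasi-likelihood test), or 68.1% of the control level. CFB (ENSSSCG00000024914) lies at Sscrofa11.1 chromosome 7, 24034077 to 24040523. The fall did not pass without library 1 labelled BRG1 (-0.50; adjusted p = 0.0766). It was -0.33 with scaling by library size alone and -0.28 with the gene span trend removed, and passed in both (adjusted p = 0.0174 and 0.0258).

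The paired classical proteases parted. C1S, the protease that cleaves C4 and C2, was at 418 and 424 CPM in the controls and 605 and 616 CPM in the libraries labelled BRG1. Its replicates lay within 1.79% of each other, and its groups were well separated (log2 fold change 0.54 ± 0.10; adjusted p = 0.000641, edgeR quasi-likelihood test). The same value did not pass without library 1 labelled BRG1 (0.55; adjusted p = 0.0540) or without library 2 (0.52; adjusted p = 0.0714), where a single library stood for that group.

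C1R, the protease that activates C1s, was at 781 and 854 CPM in the controls and 751 and 775 CPM in the libraries labelled BRG1. On this scale the controls lay higher by a margin smaller than the gap between them, and the change did not pass (-0.10 ± 0.11; 95% interval -0.33 to 0.13; adjusted p = 0.483, edgeR quasi-likelihood test). The interval allows 0.80-fold to 1.09-fold. With scaling by library size alone the order turned, with 717 and 796 CPM in the controls against 813 and 836 CPM (log2 fold change 0.12; adjusted p = 0.359), and it was 0.11 with the gene span trend removed. Without control 1 the value was -0.17 ± 0.036 and passed (adjusted p = 9.97e-06), with the spread taken from the pair labelled BRG1 alone. C1R (ENSSSCG00000060530, 63644097 to 63655149) and C1S (ENSSSCG00000055651, 63670309 to 63681466) lie 15.2 kb apart on Sscrofa11.1 chromosome 5.

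SERPING1, the serpin that inactivates C1r and C1s and also proteases of the lectin and contact systems, had the largest rise of the 6. It was at 105 and 111 CPM in the controls and 237 and 246 CPM in the libraries labelled BRG1. Both libraries labelled BRG1 were more than 2-fold above both controls. The log2 fold change was 1.16 ± 0.10 (adjusted p = 3.55e-07, edgeR quasi-likelihood test), or 2.24-fold (95% interval 1.93 to 2.60), and 90.3% of tested genes had a lower one. SERPING1 (ENSSSCG00000013181) lies at Sscrofa11.1 chromosome 2, 13324160 to 13338826.

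Ratios of reads between 2 genes within a library do not depend on how libraries are scaled. They describe unequal change and not levels per transcript, since transcript lengths differ. A trend of level with gene span is not removed from them. An exact permutation test of 2 libraries against 2 cannot go below p = 0.333, so none is given. Reads of C1S per 100 reads of C1R were 53.5 and 49.7 in the controls and 80.6 and 79.6 in the other group. Reads of SERPING1 per 100 reads of C1R were 13.4 and 13.0 against 31.6 and 31.8, and per 100 reads of C1S 25.1 and 26.2 against 39.2 and 40.0. The inhibitor transcript was thus more abundant relative to C1R and to C1S in both libraries labelled BRG1. MASP1, a gene for lectin pathway proteases, rose as SERPING1 did (log2 fold change 1.16 for both). With the gene span trend removed the values were 1.32 for SERPING1 and 1.01 for MASP1. The products of MASP1 are not separated in these counts, so the inhibitor transcript cannot be set against any single one of them.

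CFB and CFD moved differently against C3. Reads of CFB per 100 reads of C3 were 2.85 and 2.52 in the controls and 4.44 and 4.72 in the libraries labelled BRG1, so C3 fell more than CFB in every pairing of libraries. Reads of CFD per 100 reads of C3 were 1.47 and 1.21 in the controls and 1.37 and 1.36 in the others, where the groups overlapped. Reads of CFD per 100 reads of CFB fell from 51.8 and 48.1 to 30.9 and 28.9. The 6 genes together drew 1.25% ± 0.17 of gene reads in controls and 0.704% ± 0.007 in the other group (SD, n = 2). Of those reads C3 made up 86.5% ± 1.12 and 71.0% ± 0.32.

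**Figure D2:**
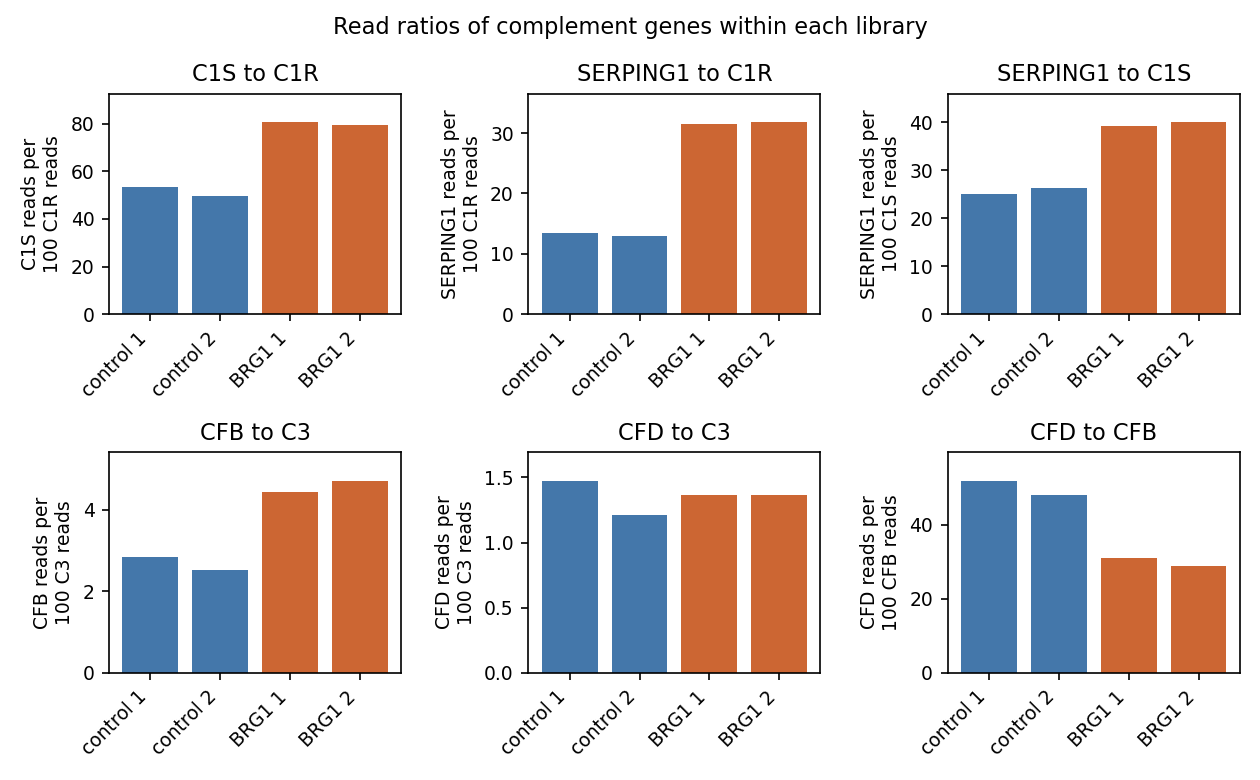
Reads of one complement gene per 100 reads of another in each of the 4 libraries (bars, 1 library each; y axes from 0). The ratios of C1S to C1R, SERPING1 to C1R or C1S, and CFB to C3 are higher in both libraries labelled BRG1, CFD to CFB is lower, and CFD to C3 overlaps between groups (1.21 to 1.47).

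Of 49 other genes of the complement system, 40 had a row under their symbol and 19 passed the filter on low counts. In these 19, 5 rose, 3 fell and 11 did not pass, which is 8 of 19 against the 44.6% of all genes tested. Their median log2 fold change was 0.58, against 0.02 over all genes tested. That median is the value of ITGAM, which had at most 19 reads in any library and did not pass (0.58 ± 0.86, adjusted p = 0.615, edgeR quasi-likelihood test). Several recognition proteins had no reads. C1QA, C1QB and C1QC, the chains of C1q, had 0 reads in all 4 libraries, as did MBL2, FCN2 and COLEC10 of the lectin pathway; 0 reads allow at most 0.093 CPM in any library (3 reads, counting error only). The other genes with 0 reads in all libraries were C7, C8B, CPN1, CPN2, CSMD3, VSIG4 and CD93. Rows below the filter were C6, C8A, COLEC11, MASP2, C4BPB, C3AR1, C5AR1 and CSMD1, with at most 9 reads in any library. Listed genes with no row under their symbol, among them C4B, FCN1, CR1, CR2, CSMD2 and ITGAX, are not analysed here.

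The rises with many reads were those of MASP1, CLU and COLEC12. MASP1, a gene for lectin pathway proteases, was at 822 and 983 CPM in the controls and 2019 and 2021 CPM in the libraries labelled BRG1 (log2 fold change 1.16 ± 0.12; adjusted p = 2.01e-06, edgeR quasi-likelihood test); its alternative products, among them the MASP-3 protease that activates factor D, are not separated in these counts. CLU, clusterin, which can block the terminal pore, was at 541 and 565 CPM against 1353 and 1347 CPM (1.29 ± 0.11; adjusted p = 2.60e-07). COLEC12, a membrane collectin, was at 63.6 and 77.9 CPM against 128 and 142 CPM (0.93 ± 0.12; adjusted p = 1.29e-05). The groups of these 3 genes did not overlap.

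C9, a subunit of the pore, and ITGB2, a chain of the leukocyte complement receptor, rose from few reads. C9 had 15 and 21 reads in the controls and 66 and 90 in the libraries labelled BRG1 (1.91 ± 0.50; adjusted p = 0.00601, edgeR quasi-likelihood test), and did not pass without library 2 labelled BRG1 (adjusted p = 0.0982). ITGB2 had 63 and 56 reads against 197 and 80 (1.01 ± 0.39; adjusted p = 0.0456). Library 1 labelled BRG1 stood apart there, and without it the value was 0.27 (adjusted p = 0.749). In DESeq2 and limma-voom ITGB2 did not pass (adjusted p = 0.0920 and 0.0958).

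The genes that fell were C2, THBD and C1QBP. C2, the classical pathway homologue of CFB, ends 34 bases before CFB starts on chromosome 7, and reads over 2 genes were set aside in these files. It was at 5.28 and 4.39 CPM in the controls and 2.14 and 2.72 CPM in the libraries labelled BRG1 (-0.99 ± 0.28; adjusted p = 0.00900, edgeR quasi-likelihood test), and did not pass without library 1 labelled BRG1 (adjusted p = 0.0786). THBD, thrombomodulin, which also promotes C3b inactivation, was at 4.65 and 7.29 CPM against 1.96 and 2.30 CPM (-1.48 ± 0.29; adjusted p = 0.000707). C1QBP, first found as a C1q-binding protein, is mainly a mitochondrial matrix protein. It was at 171 and 142 CPM against 91.5 and 94.1 CPM (-0.76 ± 0.11, adjusted p = 5.73e-05, edgeR quasi-likelihood test). With the gene span trend removed the log2 fold change of C1QBP was -0.44.

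The 11 that did not pass were C4A, C5, C8G, CFI, CFP, C4BPA, C5AR2, VTN, CPB2, SUSD4 and ITGAM. Except for SUSD4, they had at most 67 reads in any library, and a difference of 2-fold lay within the intervals of all 11. SUSD4, a complement inhibitor of the membrane, had the most reads (29 and 70 against 114 and 103; log2 fold change 0.92 ± 0.43; adjusted p = 0.0939). Its controls differed, and the value was 0.37 without control 1 (adjusted p = 0.448) and 1.75 without control 2 (adjusted p = 0.000525).

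**Figure D3:**
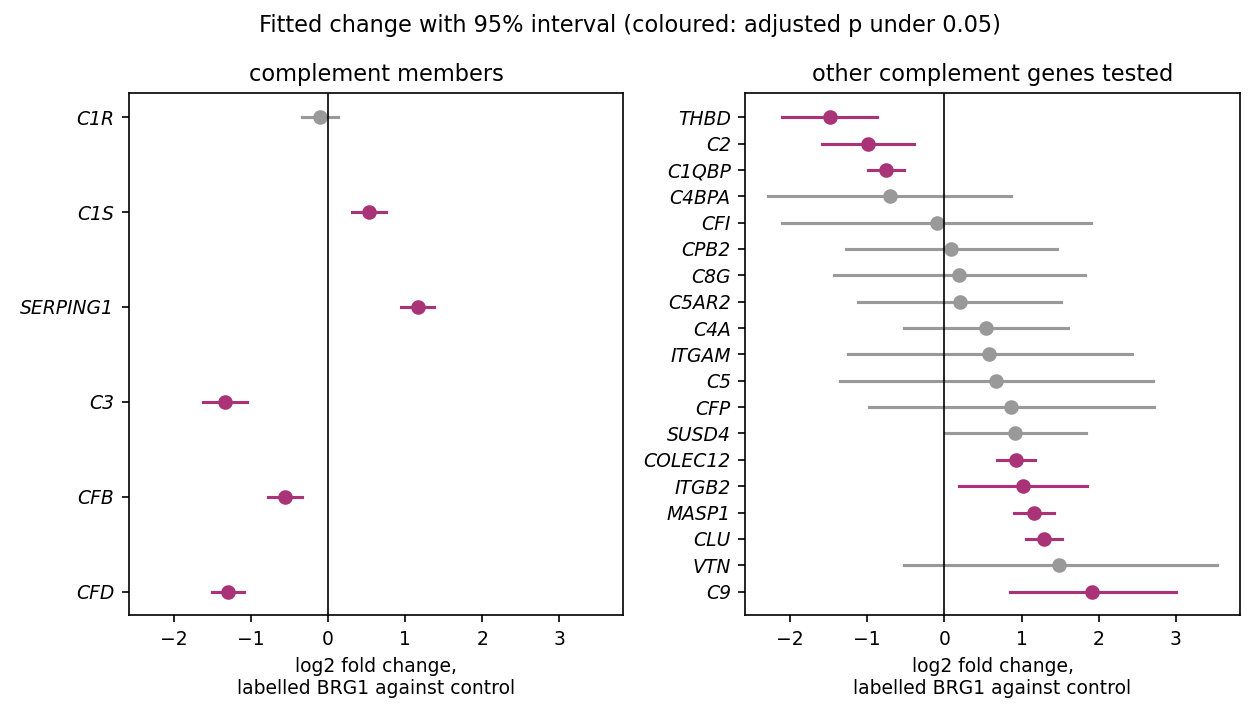
Fitted log2 fold change of the libraries labelled BRG1 against controls (points) with its 95% interval (lines), for the 6 members and the 19 other complement genes tested; colour marks an adjusted p under 0.05. Members range from -1.33 (C3) to 1.16 (SERPING1), and intervals are wide for genes with few reads, such as C9.

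Genes known to induce complement transcription were read from a list of 12, of which 11 had a row (IL1B had none under its symbol). Of 10 tested 8 fell, 1 rose and 1 did not pass, where 23.6% of all genes tested fell and 21% rose. The list was drawn up with earlier results of these data known, so these counts are a description only. IL6, a cytokine that induces acute-phase genes, was at 2225 and 1994 CPM in the controls and 443 and 466 CPM in the libraries labelled BRG1 (log2 fold change -2.22 ± 0.12; adjusted p = 2.94e-09, edgeR quasi-likelihood test). Among the others that fell were IL1A, TNF, NFKB1, RELA, CEBPB and IRF1. IRF1, a factor induced by interferon, was at -1.53 ± 0.10 and CEBPB at -0.91 ± 0.11. With the gene span trend removed IRF1 was at -1.27 and CEBPB at -0.42, and both passed (adjusted p = 3.13e-08 and 0.00149, edgeR quasi-likelihood test). STAT3, which transmits IL6 signals, rose (0.45 ± 0.10; adjusted p = 0.00292). CEBPD did not pass (-0.28 ± 0.12; adjusted p = 0.0689), and its value depended on the processing: it was 0.17 with the gene span trend removed (adjusted p = 0.1002), -0.05 with library size alone (adjusted p = 0.744) and -0.27 with the replicate block (adjusted p = 0.140), and it passed as lower without a filter and in DESeq2 (adjusted p = 0.0148 and 0.0193). Without control 1 or control 2, with the spread taken from the pair labelled BRG1 alone, it was -0.16 and -0.40 and passed. IFNG had 0 reads. TNF, with at most 50 reads, did not pass without control 2 (adjusted p = 0.0796) or without library 1 labelled BRG1 (adjusted p = 0.0861). RELA did not pass without library 1 or library 2 labelled BRG1 (adjusted p = 0.0672 and 0.0818) or with the gene span trend removed (-0.22; adjusted p = 0.0581), and STAT3 did not without either library (adjusted p = 0.105 and 0.140). Their part in the complement results was not tested.

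Among 9721 candidate genes, those closest to C3 in pattern over the 4 libraries were IKBKE, a kinase of innate immune signalling, GTPBP2, a GTP-binding protein, and SLC39A14, a zinc and iron transporter. Their root mean square distances from C3, in log2 CPM centred on each gene's mean, were 0.01, 0.04 and 0.04. IKBKE was at 84.8 and 104 CPM in the controls and 36.2 and 37.5 CPM in the libraries labelled BRG1. With 4 libraries in 2 groups many genes can share such a pattern, and the likeness is a description.

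Across the 12 processing alternatives C3, CFD and SERPING1 passed in the same direction in all 12. Their log2 fold changes ranged from -1.47 to -1.11 for C3, from -1.33 to -0.89 for CFD and from 1.11 to 1.39 for SERPING1. Those of C1S ranged from 0.51 to 0.76 and those of CFB from -0.62 to -0.28, with the exceptions given above. Scaling by library size alone moved the median of all genes from 0.02 to 0.24.

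**Figure D4:**
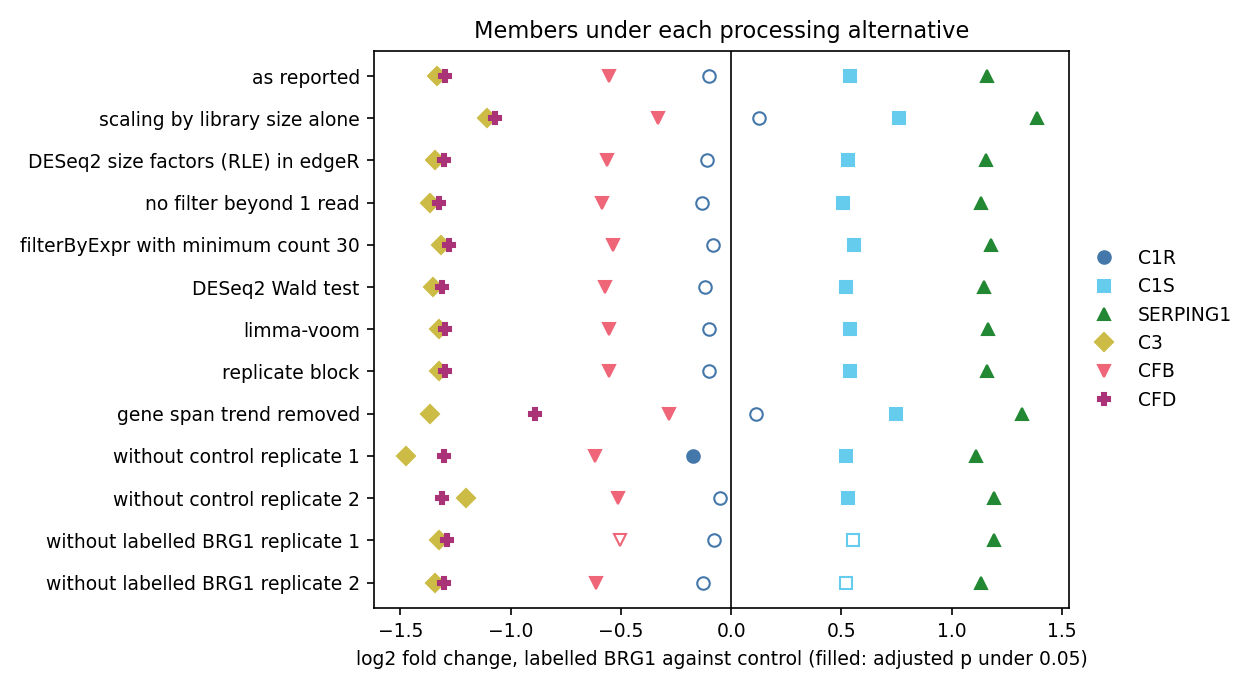
Log2 fold change of the 6 genes (x axis) as reported and under each of 12 processing alternatives (y axis); filled symbols mark an adjusted p under 0.05. C3 and CFD stay left of zero and SERPING1 right of it in every row, while C1R crosses zero with scaling by library size alone and with the gene span trend removed.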

How the data were processed

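The authors deposited raw read counts, 1 file for each library, with Ensembl gene identifiers. The submitters' processing notes name STAR, FastQC, SAMtools, Cufflinks, edgeR and DESeq2 and the build Sscrofa11.1. The counter, strand setting and annotation release are not given in the sources used here. Reads over several genes were set aside as ambiguous (1.90% to 2.33% of all reads). With the strand setting unknown, antisense reads may be counted under a gene. RNA was extracted with trizol, per the labels' protocols. Closing rows that name no gene held 10.2% to 13.8% of all reads and were left out of library sizes and tests.

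Counts were fitted in R 4.3.3 with edgeR 4.0.16 (filterByExpr, minimum count 10 and minimum total 15; TMM factors 0.918, 0.931, 1.08 and 1.08 for controls 1 and 2 and libraries 1 and 2 labelled BRG1; quasi-likelihood F test) and adjusted by Benjamini-Hochberg over 14617 genes, threshold 0.05. The fit's prior count was 0.125, and SE was derived from the unshrunk log2 fold change and its F statistic. Levels are TMM-scaled CPM. Replicates differed by more than counting noise (chi-square per degree of freedom 37.2 for controls and 5.33 for the others). The code of the fit was also run on simulated counts, with the same dispersion for every gene and library and far fewer changed genes than here. That run does not bear on the unequal spread of these groups. Alternatives used DESeq2 1.42.0, limma 3.58.1, other scalings and filters, the replicate number as a block, the gene span trend removed and each library left out.

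Members and lists were chosen with earlier results of these data known. Named genes were all members, SMARCA4, other complement genes that passed or were not tested, a list of inducers and the 3 genes most like the member with the largest change (mean log2 CPM 2 or more, pseudocount 0.5). Complement genes that did not pass, and the relatives in the closing section, were added after values had been seen. Symbols come from the files, with 223 added from the gene name table; positions come from RefSeq's Sscrofa11.1 table by symbol. Gene spans, from the same table, were found for 77.4% of genes tested and for all 6 members, so fits with the span trend removed cover only genes with a span. The values of some listed genes are not reported here.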

Additional observations from a re-analysis of the deposited data

How the results depend on the processing

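Limits: 2 libraries per group, a comparison in which 44.6% of genes passed, and no replicate information on cultures. The number of members that rose was 2 in all alternatives except those without library 1 or library 2 labelled BRG1, where it was 1 (range 1 to 2 over the libraries left out), because C1S no longer passed. The number that fell ranged from 2 to 4 over the libraries left out and was 3 otherwise. Among other complement genes the number that rose ranged from 4 to 6 and the number that fell from 2 to 3 over all alternatives. SMARCA4 ranged from -0.15 (without control 1) to 0.048 (without control 2) over the libraries left out. It was 0.18 with scaling by library size alone and -0.21 with the gene span trend removed. Neither passed (adjusted p = 0.181 and 0.0843, edgeR quasi-likelihood test). The change of the read ratio of CFD to C3, 0.03 on the log2 scale, ranged from -0.11 (without control 2) to 0.17 (without control 1). For these the cause was not tested.

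Replicate numbers are shared by the groups in the labels, but nothing says that they mark a shared culture or day, and the deviations of same-numbered libraries were uncorrelated across genes (-0.005). With the replicate number as a block 6694 genes passed instead of 6512, the members' counts stayed at 2 higher and 3 lower, and SUSD4 passed (1.03; adjusted p = 0.0295); the log2 fold change of SMARCA4 with the replicate block was -0.04. Without library 1 labelled BRG1 4085 genes passed, and without library 2 4229. Scaling by library size alone gave 4819 higher and 2140 lower among all genes, against 3068 and 3444. SUSD4 also passed with library size alone (adjusted p = 0.0403), without a filter (0.0426), in limma-voom (0.0448) and without control 2 (0.000525), and did not pass in DESeq2 (0.177), without control 1 (0.448), with the gene span trend removed (0.178) or without library 1 or 2 labelled BRG1 (0.201 and 0.146).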

Other observations

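Relatives of the complement genes were read after the values of the members had been seen, from a list of 13 genes, of which 10 were tested, 7 rose and none fell (21% of all genes tested rose). A2M, CD109 and CPAMD8, which share the thioester protein family with C3, rose while C3 fell. C4A and C5 of the same family, which are not in this list, did not pass. Their log2 fold changes were 0.54 ± 0.50 and 0.66 ± 0.95 (adjusted p = 0.401 and 0.600, edgeR quasi-likelihood test). A2M, the protease inhibitor alpha-2-macroglobulin, rose from 45 and 51 reads in the controls to 378 and 441 in the libraries labelled BRG1 (log2 fold change 2.90 ± 0.24; adjusted p = 2.43e-07, edgeR quasi-likelihood test). CD109, a membrane-anchored member, rose from 22.3 ± 0.98 to 51.5 ± 0.11 CPM (SD, n = 2), and CPAMD8 from 6.20 ± 1.45 to 10.9 ± 0.29 CPM.

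Among proteins with the globular C1q domain, C1QTNF2, C1QTNF3, C1QTNF5 and C1QTNF6 rose, and C1QTNF1 did not pass (-0.19 ± 0.10; adjusted p = 0.124), and its direction turned with scaling by library size alone (0.03; adjusted p = 0.812). It passed as lower without control 1 (-0.23; adjusted p = 0.00171) and without control 2 (-0.18; adjusted p = 0.0137), where the pair labelled BRG1 alone gives the spread. C1QTNF3 had 39 and 14 reads in the controls and 274 and 255 in the libraries labelled BRG1 (3.13 ± 0.36; adjusted p = 5.24e-06), with a value of 3.97 without control 1 and 2.61 without control 2. C1QTNF6 (0.45 ± 0.10) did not pass without library 1 or library 2 labelled BRG1 (adjusted p = 0.0642 and 0.0698). C1RL, the C1r-like protease gene, was at 7.45 ± 0.48 and 5.98 ± 1.20 CPM (-0.32 ± 0.21; adjusted p = 0.241). PTX3, a pentraxin that binds C1q, was at 516 ± 17.9 and 490 ± 2.68 CPM (-0.07 ± 0.10; adjusted p = 0.596), and its direction turned with scaling by library size alone (0.15; adjusted p = 0.238) and with the gene span trend removed (0.21; adjusted p = 0.0519). It passed as lower without control 2 (-0.12; adjusted p = 0.00645), again with the spread of the pair labelled BRG1 alone. CRP, APCS and C1QTNF7 had at most 2 reads in any library.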
